A study of Mus musculus with 4 samples.

Results

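Opioid peptides and opioid receptors were followed in the globus pallidus, a target of inhibitory striatal axons, of cocaine-treated and saline-treated mice. The set was chosen by gene symbol: it holds every array feature annotated with Penk, Pdyn, Pnoc, Oprm1, Oprd1, Oprk1 or Oprl1 alone. The rule found 13 features of 7 genes among the 45220 features of the table, 5 of them for peptide precursors and 8 for receptors. Each of 4 Agilent whole-genome mouse arrays with 2 colours carried RNA from 1 cocaine mouse and 1 saline mouse, so 4 mouse pairs were compared. The cocaine mice were male C57BL6 animals that received 15 mg/kg cocaine on days 2, 3 and 4 of a conditioned place preference protocol, a test of learned preference for a compartment paired with a drug, and had a high preference score. The saline mice were male C57BL6 animals given saline solution on the same days of that protocol. Cocaine RNA carried the dye Cy5 in pairs 1 and 3 and Cy3 in pairs 2 and 4, and saline RNA carried the other dye.

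The opioid system consists of secreted peptides cut from large precursors and of receptors that act through inhibitory G proteins. Penk encodes proenkephalin, the source of the enkephalins; Pdyn encodes prodynorphin, the source of the dynorphins; and Pnoc encodes prepronociceptin, the source of nociceptin. Oprm1, Oprd1 and Oprk1 encode the mu, delta and kappa receptors, and Oprl1 the nociceptin receptor. In the basal ganglia, enkephalin is known from striatal neurons of the indirect pathway, whose axons fill the globus pallidus, and prodynorphin from striatal neurons of the direct pathway, which carry the dopamine receptor Drd1.

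Each value below is a log2 ratio, taken as cocaine over saline. The deposited ratios had been turned to a single treatment direction, but the sources leave the numerator open. Cocaine over saline is only the more likely reading, since the design text sets the cocaine animals against the saline ones, while the sample titles put cocaine first in pairs 1 and 3 and saline first in pairs 2 and 4; under the other reading every sign below turns. The deposited ratios were not dye-normalized, so they were corrected within each array by loess, a curve through the ratios as a function of signal. The mean signal of a feature was recovered from pairs 1 and 3, whose values keep enough digits to give both channels in scanner units. Signals of different probes do not rank RNA levels and serve here only to show how far a feature stood above the dim end of the arrays. The lowest 5% of the 33614 tested features had a mean signal of at most 114, and the median was 232. Whether scanner background remains in the signals, which would shrink ratios near that low end, is not given in the sources and was not tested. The 10 measured markers of pallidal neurons had mean signals between 256 (Kcng4) and 7300 (Npas1). The 8 of cortical and thalamic neurons had 116 (Neurod6) to 553 (Rora). The 7 shared by both striatal pathways had 202 (Ppp1r1b) to 1340 (Rgs9). These ranges overlap and are no check of the dissection, which was not tested.

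None of the 13 features differed between cocaine and saline mice past the threshold. With limma on the features, with a dye term and Benjamini-Hochberg adjustment over all 33614, their adjusted p ran from 0.968 to 0.993, and 0 of 13 had an unadjusted p under 0.05, where the background was 2.10% (707 features). At an adjusted p under 0.05 the background was 0% both over features and over the 19078 genes obtained by averaging the features of each gene. The moderated SE given with a change rests on the spread between pairs of the same dye orientation, since the dye term takes up the difference between orientations. Changes of the 13 features lay between -0.19 and 0.29, 6 above 0 and 7 below. Their median absolute change of 0.093 stood beside 0.058 over all features. An exact sign-flip test over 4 pairs cannot go below p = 0.125, so no such test is given. The labels give every channel its own animal, so the spread between pairs includes that between mice.

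**Figure D1:**
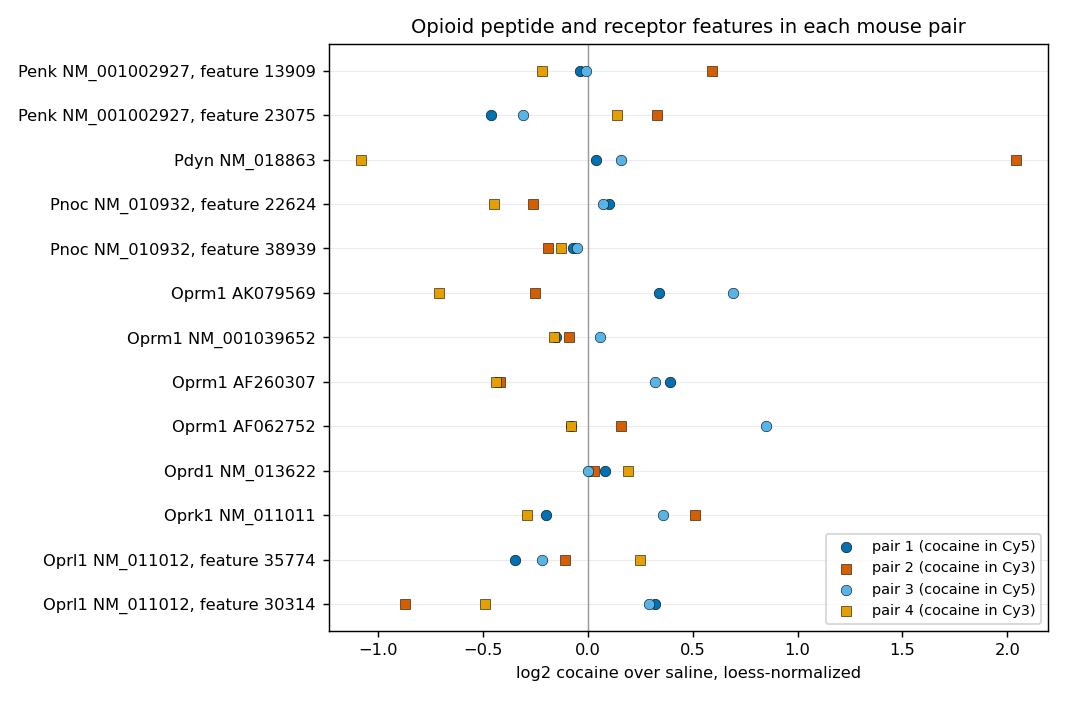
Loess-normalized log2 ratio of cocaine over saline (horizontal axis) for each of the 13 features (rows), with 1 point per mouse pair; circles are pairs with cocaine RNA in Cy5 and squares pairs with cocaine RNA in Cy3. Pdyn spans from -1.08 in pair 4 to 2.04 in pair 2, and the other features stay within 1 log2 unit of 0 in all pairs.

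Among the peptide precursors, Pdyn set the mouse pairs furthest apart. Its single feature (NM_018863) had normalized ratios of 0.04, 2.04, 0.16 and -1.08 in pairs 1 to 4. After loess, prodynorphin RNA thus read 4.10-fold higher in the cocaine mouse of pair 2, 2.12-fold higher in the saline mouse of pair 4, and close to equal in pairs 1 and 3. With each array centred on its median instead, it read 1.46-fold, 1.71-fold and 1.66-fold higher in the cocaine mouse of pairs 1, 2 and 3, and 3.11-fold higher in the saline mouse of pair 4. Pairs 2 and 4 have the same dye orientation, and their signs were opposite after loess and after centring. As deposited, both ratios were below 0, at -0.11 and -2.21. Whether the dye had a part in the difference between these pairs was not tested. Among the 33614 features after loess, Pdyn had the highest ratio of all in pair 2 and the 66th lowest in pair 4, and its range over pairs of 3.12 ranked 15th. The SD of its 4 ratios was 1.29, where the median feature had 0.19. Its change over all pairs was 0.29 ± 0.47 (moderated SE, n = 4), with a 95% interval of -0.88 to 1.46 and an adjusted p of 0.974 in limma.

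The change of Pdyn turned on single pairs. It was -0.49 without pair 2 and 1.07 without pair 4. Without pair 4 it passed the threshold in limma when fitted as a gene (adjusted p = 0.00976; 5 of 19078 genes passed, a background of 0.0262%) and missed it when fitted as a feature (adjusted p = 0.0721); that fit has a single array left with cocaine in Cy3. The residual spread of that fit is the difference between pairs 1 and 3 alone. Its p therefore does not measure how far ratios like that of pair 2 vary between mice. Over the other alternatives the change of the gene ran between 0.033 as deposited and 0.319 without pair 1. An absolute normalized ratio of at least 1 in some pair was found for 1 of the 13 features, Pdyn, against 3.76% of all features.

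Before normalization, Pdyn had a signal of 5315 in the cocaine mouse and 2433 in the saline mouse of pair 1, and 5246 in the cocaine mouse and 2096 in the saline mouse of pair 3. The cocaine channel, Cy5 in both pairs, thus read 2.18-fold and 2.50-fold higher. Other features of like signal were about as far from equal, since the loess curve lay at 1.09 and 1.16 on the log2 scale there. The channel signals of pairs 2 and 4 were not resolved, so for these pairs it is not shown whether the cocaine or the saline mouse departed. The deposited ratios of Pdyn in pairs 2 and 4 were -0.11 and -2.21, where the loess curve lay at -2.15 and -1.13. After median centring the ratios were 0.55, 0.77, 0.73 and -1.64 in pairs 1 to 4. The distance between pairs 2 and 4, which share their orientation, was therefore 2.10 as deposited, 2.41 after centring and 3.12 after loess.

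The RefSeq promoter table places a start of Pdyn on mouse chromosome 2. The 250 bases before it are shown because Pdyn carried the widest differences between pairs. They lie at chr2:129699939-129700188 on the minus strand (RefSeq, GRCm38.p6) and hold 57.2% G and C. The search covered both strands for TGACGTCA, the cAMP response element, for TGACG, the core within it, for TGANTCA, the AP-1 element, and for GCGNGGGCG, the element of EGR factors. None of these letters was found in the window, which is therefore printed without capitals.
Pdyn upstream: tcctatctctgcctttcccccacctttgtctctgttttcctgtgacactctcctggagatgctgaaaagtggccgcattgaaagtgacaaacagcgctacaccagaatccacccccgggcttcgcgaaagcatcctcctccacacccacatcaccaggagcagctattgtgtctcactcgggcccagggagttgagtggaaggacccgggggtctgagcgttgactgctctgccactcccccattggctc
The same motifs occurred in 1.79%, 20.8%, 7.81% and 5.55% of the 32851 windows of 300 bases around the gene starts of the same table. Those windows also take in 50 bases after the start, so their rates are for a longer stretch. A window of that length around the same start of Pdyn held none of the motifs, nor did that of a further Pdyn start, at chr2:129698609-129698908. The table holds such windows for 4 of the 7 genes, Pdyn, Oprm1, Oprd1 and Oprl1.

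Among the genes ranked, those whose 4 ratios lay nearest to Pdyn, by the root mean square difference over the pairs, were Egr4, Oxt, Kdm8 and Naip6. The ranking left out the other opioid genes and symbols of the RIKEN, Gm, LOC and BC kinds or formed like sequence identifiers. Egr4, a transcription factor of the immediate early response, had ratios of -0.02, 1.21, -0.09 and -0.58 and differed from Pdyn by 0.50. Oxt, the oxytocin precursor, had -0.31, 1.31, -0.03 and -0.17 and differed by 0.62. Kdm8 and Naip6 differed by 0.62 and 0.63 and had ratios of 1.27 and 1.23 in pair 2 and of -0.15 and -0.14 in pair 4. Drd1, the dopamine receptor of the direct pathway, had -0.35, 0.94, -0.06 and -0.51 and stood 6th with 0.66. These likenesses rest on 4 arrays and describe them only.

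**Figure D2:**
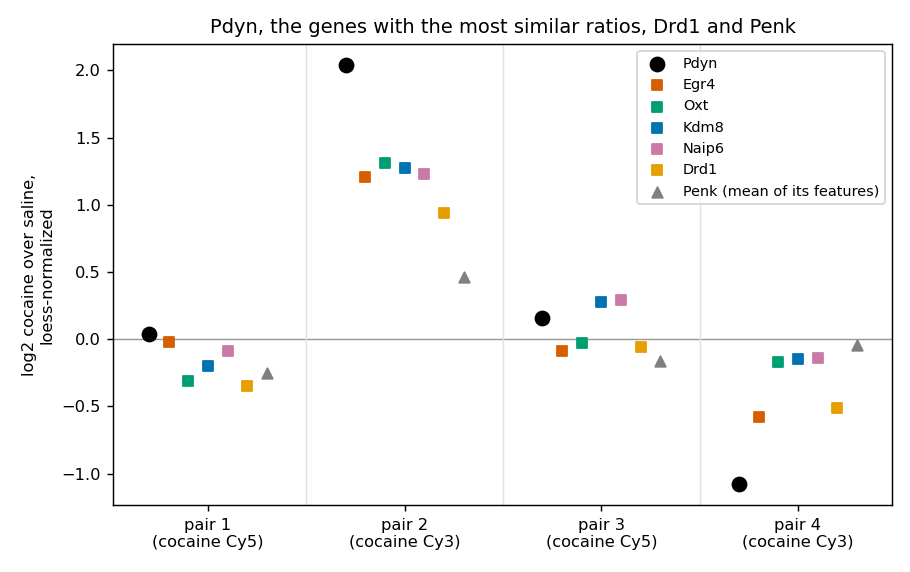
Loess-normalized log2 ratio of cocaine over saline (vertical axis) of Pdyn, its 4 nearest genes, Drd1 and Penk in each of the 4 mouse pairs (columns of points). The nearest genes have the smallest root mean square difference from Pdyn among the genes ranked. In pair 2 Pdyn stands at 2.04, above the other genes plotted, and in pair 4 at -1.08, below them.

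Markers of the striatal neurons in which prodynorphin is known spread to both sides of 0. Of the 6 direct pathway markers, 3 were above and 3 below 0 over all pairs, 0 passed the threshold (lowest adjusted p = 0.966, limma), and their median ratios were -0.02, 0.12, -0.05 and -0.15 in pairs 1 to 4. Tac1, the precursor of substance P in the same neurons, had 0.24 in pair 2 and -0.03 in pair 4. Isl1, a transcription factor of these neurons, had 0.44 and -0.72 in those pairs. The 3 remaining members besides Drd1 did not share both signs: Sfxn1 had -0.26 and -0.20, Chrm4, a muscarinic receptor, 0.01 and 0.10, and Eya1 -0.19 and -0.10. Markers shared by both striatal pathways (7 measured) had medians of -0.01 in pair 2 and -0.21 in pair 4. Pde10a, a striatal phosphodiesterase, had 0.23 and -0.50, Rgs9 0.75 and -0.19, and Foxp1 0.31 and -0.37. Ppp1r1b, the dopamine-regulated phosphatase inhibitor of striatal neurons, had -0.59 and -0.21. Rasd2 had -0.01 and -0.14, Bcl11b -0.10 and -0.26, and Adcy5 -0.01 and 0.19. Pallidal neuron markers (10 measured) had medians of 0.07 and -0.05. Peptides of hypothalamus and amygdala (10 measured) had 0.10 and -0.08. In pair 2 single members of that list spread to both sides of 0. They ran from -0.91 (Gal, mean signal 299) to 1.31 (Oxt and Avp, mean signals 242 and 200). Whether the makeup of the dissected tissue has a part in the ratios of Pdyn was not tested. In bulk tissue, fewer cells of a type and less RNA per cell cannot be told apart.

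Penk, the proenkephalin gene, had 2 features whose changes had opposite signs. The brighter one (feature 13909) had ratios of -0.04, 0.59, -0.01 and -0.22 in pairs 1 to 4, and a change of 0.082 ± 0.135 (moderated SE, n = 4). Its signals were 38131 in the cocaine mouse and 16251 in the saline mouse of pair 1, and 42068 in the cocaine mouse and 16266 in the saline mouse of pair 3, among the top 1% of tested features. The second feature (23075) had -0.46, 0.33, -0.31 and 0.14, and a change of -0.072 ± 0.071. Its ratio was below 0 in both pairs with cocaine in Cy5 and above 0 in both with cocaine in Cy3 (dye term -0.31, adjusted p = 0.0522 in limma). Both features read highest in pair 2, the pair in which Pdyn was highest, after loess. Centred on the median instead, feature 13909 had 0.65, -1.02, 0.78 and -1.01 in pairs 1 to 4. Feature 23075 then had 0.00, -0.80, 0.21 and -0.35. The mean of both gave a change of 0.005 ± 0.091 (moderated SE, n = 4; 95% interval -0.22 to 0.23), and its sign depended on the normalization: it was -0.191 with median centring and -0.262 as deposited. Indirect pathway markers, from the neurons in which enkephalin is known (3 measured), had median ratios of -0.11, 0.10, -0.15 and 0.07. Over all pairs, 2 of these 3 were above 0, Gpr6 with a change of 0.065 ± 0.087 and Sp9 with 0.026 ± 0.059. Drd2, the dopamine receptor of that pathway, had a change of -0.144 ± 0.089.

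Pnoc, the nociceptin precursor gene, was dimmer and more even. Its feature 22624 had ratios of 0.10, -0.26, 0.07 and -0.45 in pairs 1 to 4 and a change of -0.137 ± 0.068 (moderated SE, n = 4). Its feature 38939 had -0.07, -0.19, -0.05 and -0.13 and a change of -0.109 ± 0.062, so all 4 pairs lay below 0. The same sign in all 4 pairs was found for 2 of the 13 features, this one and that of Oprd1, where the background was 6.29%. It held only after loess: with median centring, feature 38939 had -0.27, 0.20, -0.32 and 0.11 and the Oprd1 feature -0.56, 0.93, -0.70 and 0.85. Signals in pair 1 were 253 in the cocaine mouse and 167 in the saline mouse for the first feature, and 226 in the cocaine mouse and 182 in the saline mouse for the second. The gene's change of -0.123 ± 0.055 (95% interval -0.26 to 0.01; adjusted p = 0.966, limma) moved only between -0.139 and -0.107 when a pair was left out.

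**Figure D3:**
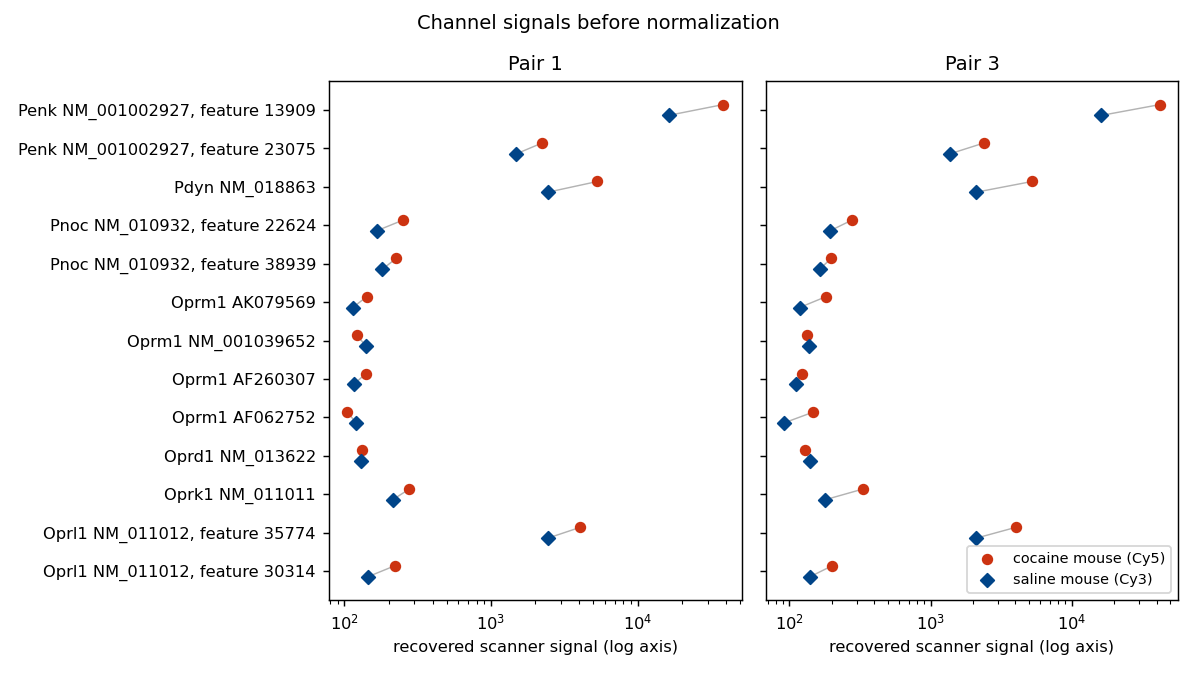
Recovered scanner signal (horizontal log axis) of each feature (rows) in pairs 1 and 3, before normalization, with the cocaine mouse as a red circle and the saline mouse as a blue diamond. The features of Oprm1 and Oprd1 lie between 92 and 181, and the brighter feature of Penk reaches 42068.

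Most receptor features were dim on these arrays. Of the 8 receptor features, 4 lay in the lowest 25% of signals, that of Oprd1 and 3 of the 4 of Oprm1; the remaining Oprm1 feature stood at percentile 25.2. Oprm1, the mu receptor, is covered by features for 4 different transcripts, whose mean signals were 136 (AK079569), 133 (NM_001039652), 122 (AF260307) and 114 (AF062752). The AK079569 feature had ratios of 0.34, -0.25, 0.69 and -0.71 in pairs 1 to 4. The AF260307 feature had 0.39, -0.42, 0.32 and -0.44. Both were above 0 in the pairs with cocaine in Cy5 and below 0 in those with cocaine in Cy3. The NM_001039652 feature kept near 0, at -0.15, -0.09, 0.06 and -0.16. The AF062752 feature had -0.08, 0.16, 0.85 and -0.08, with its high value in pair 3, where the cocaine mouse had a signal of 148 and the saline mouse 92. Changes of the 4 features ran from -0.085 to 0.213, and their mean gave 0.027 ± 0.080 (moderated SE, n = 4; 95% interval -0.17 to 0.22). The 4 features gave no common direction. All lay near the dim end of the arrays, and whether remaining background shrank their ratios was not tested. The interval therefore sets no bound on a difference in mu receptor RNA.

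Oprd1, the delta receptor, had ratios of 0.08, 0.03, 0.00 and 0.19 in pairs 1 to 4, none below 0. Its signals were 131 in the cocaine mouse and 129 in the saline mouse of pair 1, and 130 in the cocaine mouse and 140 in the saline mouse of pair 3. Its change as a gene was 0.076 ± 0.061 (moderated SE, n = 4; adjusted p = 0.966, limma).

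Oprk1, the kappa receptor and the receptor of the dynorphins, had ratios of -0.20, 0.51, 0.36 and -0.29 in pairs 1 to 4. It was above 0 in pair 2 and below 0 in pair 4, as Pdyn was, at a smaller size, and in pairs 1 and 3 its signs differed where Pdyn was close to 0. Its signals were 278 in the cocaine mouse and 214 in the saline mouse of pair 1, and 335 in the cocaine mouse and 180 in the saline mouse of pair 3. The change was 0.093 ± 0.151 (moderated SE, n = 4; 95% interval -0.28 to 0.46), and it was -0.106 without pair 2, -0.047 without pair 3 and 0.293 without pair 4.

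Oprl1, the nociceptin receptor, had a bright and a dim feature of the same transcript, whose ratios differed. The bright one (35774) had -0.35, -0.11, -0.22 and 0.25 in pairs 1 to 4, with signals of 4058 in the cocaine mouse and 2448 in the saline mouse of pair 1. The dim one (30314) had 0.32, -0.87, 0.29 and -0.49, with signals of 221 in the cocaine mouse and 146 in the saline mouse of that pair. The features had opposite signs in 3 of the 4 pairs. Their changes were -0.107 ± 0.083 and -0.188 ± 0.084 (moderated SE, n = 4), and the mean of both gave -0.147 ± 0.076 (95% interval -0.33 to 0.04; adjusted p = 0.966, limma). Without pair 2 this change was -0.055, and without pair 4 it was -0.239.

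Some receptor features differed between the dyes. The dye term, Cy5 over Cy3 after loess, passed an adjusted p under 0.05 in limma for 3 of the 13 features, against 10.7% of all features. These were the AF260307 feature of Oprm1 (0.39, adjusted p = 0.0175), the dim feature of Oprl1 (0.50, adjusted p = 0.0207) and the AK079569 feature of Oprm1 (0.50, adjusted p = 0.0418). All 3 are receptor features with mean signals of 122 to 174. For the kappa receptor and Pdyn the dye terms were -0.01 and -0.19.

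**Figure D4:**
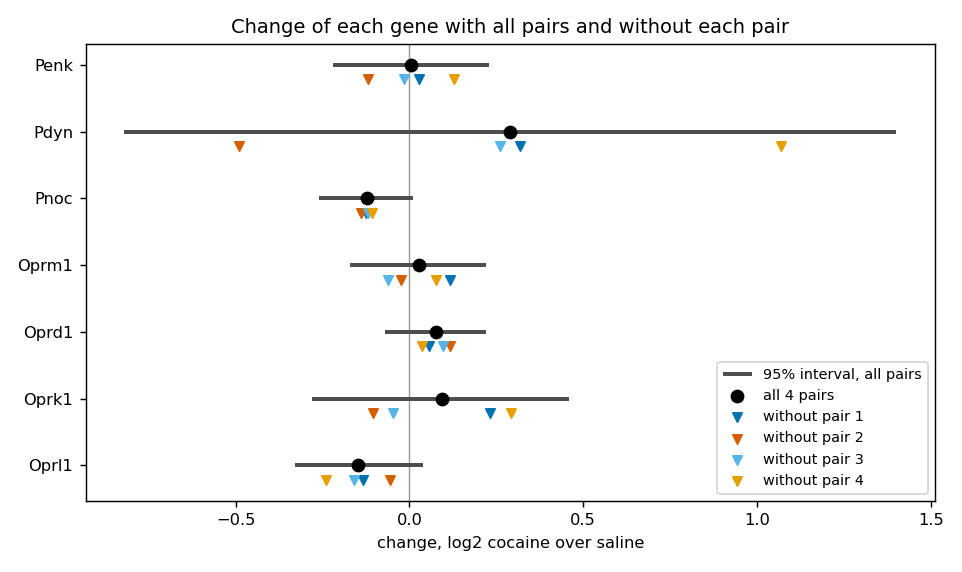
Change of each gene, as log2 cocaine over saline (horizontal axis), with all 4 mouse pairs (black point, with the 95% interval as a bar) and without each pair in turn (triangles). The bars of all 7 genes include 0; the triangles of Pdyn reach -0.49 without pair 2 and 1.07 without pair 4, while those of Pnoc stay between -0.139 and -0.107.

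Genes that make, destroy or transmit the opioid signal showed no call either. Of 53 measured genes in 7 lists, 25 were above and 28 below 0, 0 passed the adjusted threshold in limma (background 0% of genes) and 2 had an unadjusted p under 0.05, where the background was 2.64% of genes. Their median change was -0.006, the same as the -0.006 over all genes, and single changes ran from -0.22 to 0.24. Of the 9 genes of precursor processing and storage, 4 were above 0. Scg2, a granin of dense core vesicles, had 0.245 ± 0.116 (moderated SE, n = 4). Of the other granins listed, Chga had -0.087 ± 0.084 and Chgb 0.068 ± 0.067. Of the 7 peptidases, 4 were above 0; Dpp3, which cleaves enkephalins, had -0.169 ± 0.080, and Ece2, an endothelin-converting enzyme, -0.122 ± 0.085.

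Downstream of the receptors, 4 of the 8 G protein subunits were above 0. Gnb5, the beta subunit that pairs with RGS proteins, had ratios of 0.20, 0.22, -0.09 and 0.53 and a change of 0.214 ± 0.082 (moderated SE, n = 4; adjusted p = 0.966, limma). Of the 9 receptor effectors, 4 were above 0. Adcy5, the main adenylyl cyclase of the striatum, had -0.64, -0.01, -0.32 and 0.19 and a change of -0.195 ± 0.076 (adjusted p = 0.966, limma), and Kcnj9, a subunit of G protein-gated potassium channels, had -0.114 ± 0.070. Adcy5 and Gnb5 were the 2 genes with an unadjusted p under 0.05. Of the 11 genes of receptor desensitisation, 3 were above 0, and the list's medians were 0.15, -0.27, 0.12 and -0.07 in pairs 1 to 4, above 0 in the pairs with cocaine in Cy5 and below 0 in the others. Grk6, a receptor kinase, had -0.162 ± 0.080, and Rgs14 (mean signal 148) had ratios of 0.58, -0.56, 0.73 and -1.20, in the order of the dye.

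Of the 6 transcription factors tied to opioid genes, 5 were above 0. The exception was Kcnip3, known as DREAM, a calcium-binding repressor of prodynorphin, with ratios of 0.09, -1.12, 0.64 and -0.49 in pairs 1 to 4 and a change of -0.221 ± 0.133 (moderated SE, n = 4; adjusted p = 0.966, limma). It was low in pair 2, where Pdyn was high, and also low in pair 4, where Pdyn was low. Its mean signal was 193, and its ratios were above 0 in the pairs with cocaine in Cy5 and below 0 in the others. Creb1, the cAMP response factor, had ratios of 0.04, 0.25, 0.25 and -0.24 in pairs 1 to 4, and a change of 0.075 ± 0.094. It was thus as high in pair 3, where Pdyn was close to 0, as in pair 2. Atf2 had 0.08, 0.04, 0.10 and 0.01, and a change of 0.054 ± 0.055. Among the other genes named for opioids, 1 of 3 was above 0. Pomc, the precursor of beta-endorphin, had ratios of -0.04, -0.37, 0.04 and -0.13 and a change of -0.124 ± 0.066.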

How the data were processed

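The deposited table gives 1 log2 ratio for each of 45220 features on 4 arrays, with 0 missing values. Per the labels' protocols, RNA was isolated with a PicoPure kit and labelled by linear amplification. Agilent Feature Extraction is named in the submitters' processing notes, with background correction and normalization not given in the sources used here. In pairs 1 and 3, 98.86% and 98.89% of values, raised from base 2, are ratios of whole numbers, against 1.76% and 1.69% from base 10, which shows ratios of scanner signals before normalization. Column medians were 0.42, -0.58, 0.41 and -0.43 in pairs 1 to 4. Pairs of the same dye orientation had correlations of 0.892 and 0.889 over all features, and pairs of opposite orientation -0.847 to -0.947, so they are read as turned to 1 treatment direction. The numerator stays unstated.

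Channel signals of pairs 1 and 3 were rebuilt from these fractions, with the common multiple (at most 200) chosen for agreement between the arrays and no signal under 90. It resolved 45175 features (99.9%). Tested on 5000 simulated features, 89.86% lay within 0.25 log2 of the truth. Doubling both signals would fit the bright Penk feature as well.

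Loess (limma 3.58.1, R 4.3.3, span 0.3, 4 iterations) used these signals for all 4 arrays. The limma fit had a dye term and a cocaine coefficient, with 2 residual degrees of freedom (prior 3.59 for features, 4.02 for genes). On simulated data, changes of 0.5 log2 were called for 82% of features (33614 tested) and 97% of genes (19078 tested), with 18 and 17 false calls; this checks the code, since simulated noise was independent. After loess, arrays of opposite orientation still correlated at -0.397 to -0.727 and those of the same at 0.516 and 0.536.

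The platform annotation gave 1 symbol to 33653 features, several to 56 and none to 11511. All 13 features kept their symbol in the RefSeq gene table. Features of a gene were averaged.

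Members, lists and named genes were chosen with earlier results of these data known. The text names all 13 features and up to 4 genes per list by unadjusted p. It also names the 4 genes, among those ranked, nearest to the gene with the widest range over pairs. Drd1, Eya1, Neurod6, Rora, Rgs9, Bcl11b and Foxp1 fall outside this rule and were named after their values were seen. Of 119 listed entries, 9 are not analysed here. Alternatives changed the centring, the loess span, the scaling between arrays, the dye term, the filter on signal, the pairs used and the summary per gene. Scanner files were not used, so slide batches and saturation were not tested.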

Additional observations from a re-analysis of the deposited data

How the results depend on the processing

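The count of opioid features past the threshold was 0 under all alternatives, and so was that of pathway genes. The count of opioid genes was 0, except without pair 4, where it was 1 (Pdyn, 1.069), so that it ran from 0 to 1 when a pair was left out. Of 13 feature changes, 7 kept their sign under all alternatives run, as did 3 of 7 gene changes (Pnoc, Oprd1 and Oprl1). With median centring the sign turned for Penk feature 13909 (-0.148), the gene Penk (-0.191) and the AF260307 feature of Oprm1 (0.019). With ratios as deposited, where the median change of all genes was -0.083, it turned for Penk feature 13909 (-0.219) and the gene Penk (-0.262), and with arrays scaled to the same spread for the gene Penk (-0.022). Without pair 2 it turned for Penk feature 13909 (-0.120), the gene Penk (-0.120), Pdyn (-0.491), the AK079569 feature of Oprm1 (-0.096), the gene Oprm1 (-0.023) and Oprk1 (-0.106). Without pair 3 it turned for Penk (-0.017), the AK079569 (-0.068) and AF062752 (-0.020) features of Oprm1, the gene Oprm1 (-0.062) and Oprk1 (-0.047). The cause was not tested. When a pair was left out, changes ran from -0.491 to 1.069 for Pdyn, from -0.12 to 0.129 for Penk (-0.120 to 0.283 for feature 13909), from -0.062 to 0.116 for Oprm1 (-0.096 to 0.135 for AK079569 and -0.020 to 0.446 for AF062752), from -0.106 to 0.293 for Oprk1, from 0.035 to 0.117 for Oprd1, from -0.139 to -0.107 for Pnoc and from -0.239 to -0.055 for Oprl1. A fit without a pair has 1 residual degree of freedom. The ratios within arrays are themselves the paired comparison of 4 mouse pairs, so no further block was fitted. The signal filter at 232 left no value for features below it. Whether background limited the ratios of the dim receptor features was not tested.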

Other observations

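Of the 19078 genes tested, 2 had a normalized log2 ratio above 1 in pair 2 and below -0.5 in pair 4, Pdyn (2.04 and -1.08) and Egr4 (1.21 and -0.58). These bounds were set after the values were seen, so the count only describes the arrays.

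The neuropeptides Avp, Gal and Tac2 were the 3 of 10 measured peptides of hypothalamus and amygdala with an unadjusted p under 0.05 (2.64% of all genes had one), and all had an adjusted p of 0.966 in limma. Avp, the vasopressin precursor (1 feature, mean signal 200), was above 0 in all 4 pairs after loess, at 0.82, 1.31, 0.28 and 0.26. The same sign in all 4 pairs was found for 6.29% of all features. Gal, the galanin precursor, had 0.22, -0.91, -0.04 and -0.52, and Tac2, the neurokinin B precursor, had 0.14, -0.51, -0.12 and -0.39. Among glial and vascular markers (7 measured, 5 above 0), Rgs5 of pericytes had 0.86 in pair 1 and 0.15, -0.04 and 0.30 in the others, and Mbp of myelin had 0.67, -0.70, 0.27 and -0.49. Cortical and thalamic markers (8 measured, 3 above 0) had medians of 0.12 in pair 2 and 0.02 in pair 4, and interneuron markers (6 measured, 3 above 0) had 0.14 and 0.09.

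If features run 85 to a row on the array, the median ratio of the neighbours within 5 rows and columns of each of the 13 features lay between -0.06 and 0.08 in every pair, those around Pdyn included.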
